A study of Mus musculus with 13 samples.

Results

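The middle J genes of the mouse T cell receptor α (Tra) locus, TRAJ24 to TRAJ40, were examined in clonotype tables of 13 samples of rescued regulatory T (Treg) cells. A clonotype here is 1 row of a table, that is 1 nucleotide sequence of the CDR3, the hypervariable junction that a V segment, a J segment and the bases inserted between them form together. Rows were taken when their J gene had a number from 24 to 40, with TRAJ27, TRAJ31 and TRAJ37 left out, so that 14 J genes were covered. Rows counted as functional when the CDR3 amino-acid sequence held letters only, and as out-of-frame when its nucleotide length was not a multiple of 3. This gave 17801 functional and 3890 out-of-frame clonotypes, together 21691 of the 89799 such rows with a TRAJ gene. These J genes thus held 22.7% of the 78433 functional and 34.2% of the 11366 out-of-frame clonotypes.

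All samples came from spleen and lymph node of male C57BL/6 mice of genotype Foxp3LSL/y Cd4creERT2. In these mice a floxed stop cassette with a Thy1.1 reporter blocks Foxp3, and a tamoxifen-inducible Cre expressed from Cd4 removes it, so that GFP marks restored Foxp3. Every mouse received 4-hydroxytamoxifen once, on postnatal day 14, and there was no untreated or Foxp3-sufficient group in these tables. GFP+ Thy1.1- CD4 T cells were collected 1.5 months (n = 2, labelled 8 weeks of age), 3 months (n = 4, 3.5 months of age), 5 months (n = 2, 5.5 months of age) or 7 months (n = 5, 7.5 months of age) after treatment. The labels do not state that each sample was a separate mouse, so p-values over samples measure the spread between these samples, which may be technical. Total counts were 509818 to 936831 per sample, and the middle J genes had 1021 to 1882 functional clonotypes and 103126 to 203142 functional counts in each. Whether a count is a read or a molecule is not given in the sources used here, so intervals cover counting error only.

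The α chain is assembled in thymocytes by joining 1 of many V segments to 1 of many J segments. A thymocyte can rearrange the same allele repeatedly, each time replacing the joined pair by a V segment further upstream and a J segment further downstream. Early joins therefore tend to pair V segments near the J cluster with J segments at its 5′ end, and later joins pair more distant segments. The J segment supplies the 3′ part of the CDR3 and ends it with a conserved phenylalanine, or tryptophan in a few segments, before a glycine-rich motif.

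On GRCm38 the 14 segments lie on the plus strand of chromosome 14 between TRAJ40 and TRAJ24, at chr14:54177921-54195700, over 17780 bases. GENCODE annotates each as a J gene segment of the Tra locus, except TRAJ36, which is a J pseudogene. The 4 most used segments are shown first, followed by TRAJ33, which had the shortest CDR3s, and TRAJ28, which had the longest. Sequences are from GENCODE M21, plus strand, and capitals mark the codon of the last CDR3 residue.
TRAJ40 (chr14:54177921-54177981): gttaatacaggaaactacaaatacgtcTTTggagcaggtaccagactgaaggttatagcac
TRAJ34 (chr14:54184699-54184756): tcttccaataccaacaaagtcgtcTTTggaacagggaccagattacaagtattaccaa
TRAJ26 (chr14:54194490-54194549): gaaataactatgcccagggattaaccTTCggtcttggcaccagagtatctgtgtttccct
TRAJ30 (chr14:54189866-54189924): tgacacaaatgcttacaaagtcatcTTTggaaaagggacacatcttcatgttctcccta
TRAJ33 (chr14:54185358-54185414): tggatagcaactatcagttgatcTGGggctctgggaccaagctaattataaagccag
TRAJ28 (chr14:54191661-54191725): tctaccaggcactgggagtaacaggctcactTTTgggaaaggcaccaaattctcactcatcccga

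The middle J genes' share of the repertoire overlapped between time points, and no difference passed the test. Their share of functional clonotypes was 23.6% and 21.9% in the samples at 1.5 months and 22.5%, 23.3%, 23.0% and 22.3% at 3 months. At 5 months it was 22.8% and 21.2%, and at 7 months it was 21.9%, 22.4%, 23.3%, 22.7% and 23.7%. The 4 groups overlapped, and the mean over all samples was 22.7% ± 0.738 (SD, n = 13). Relative to 1.5 months the mean differed by 0.0443 points at 3 months, by -0.734 points at 5 months and by 0.0870 points at 7 months, against a pooled SD of 0.780 points. The exact two-sided permutation p-values, corrected over the 3 comparisons by the largest statistic over all 540540 arrangements, were 1.00, 0.645 and 0.998. With at least 10 counts per clonotype, the differences in clonotype share at 3 and 7 months changed sign, to -0.521 and -0.181 points. Their sign also depended on which sample at 1.5 months was left out. The share of functional counts, which weights each clonotype by its size, was 22.7% ± 1.60 (SD, n = 13), and its differences of 0.216, 1.27 and 0.426 points had exact permutation p-values of 0.998, 0.786 and 0.977.

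**Figure D1:**
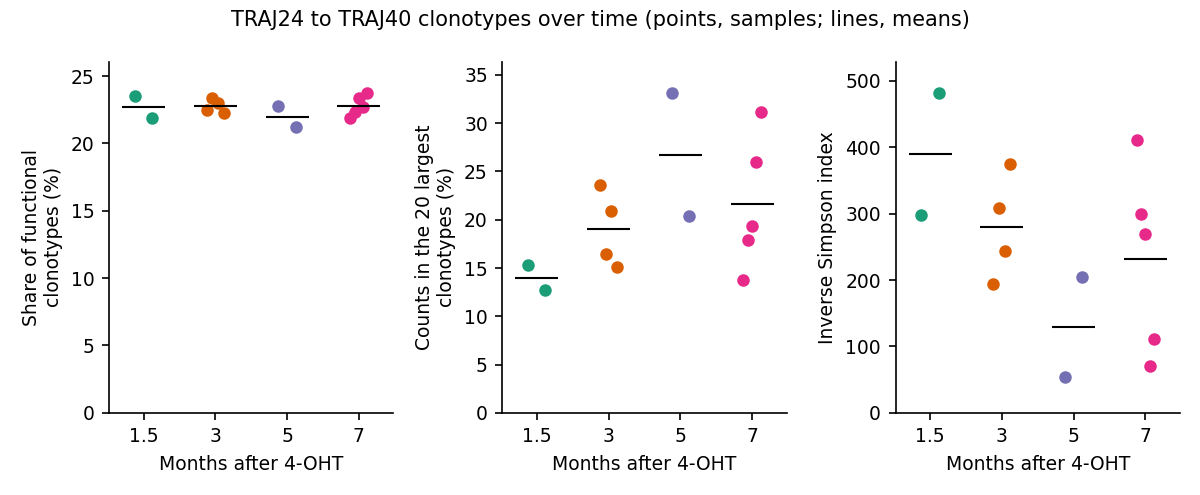
Share of functional clonotypes, share of counts in the 20 largest clonotypes and inverse Simpson index of clonotypes with the middle J genes, by months after 4-hydroxytamoxifen (4-OHT). Points are samples and lines are group means; the clonotype share stays between 21.2% and 23.7%, while the other panels spread widely within groups.

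Within the middle stretch, use differed among J genes, and 11 of the 14 had functional clonotypes. TRAJ40 had 3.15% ± 0.164, TRAJ34 3.15% ± 0.204, TRAJ26 3.03% ± 0.198 and TRAJ30 2.80% ± 0.197 of functional clonotypes (SD, n = 13). TRAJ32 had 2.47% ± 0.309, TRAJ39 2.41% ± 0.190 and TRAJ33 2.02% ± 0.211. Use of TRAJ35 was 1.22% ± 0.331, of TRAJ24 1.03% ± 0.150, of TRAJ28 0.711% ± 0.121 and of TRAJ38 0.667% ± 0.128. In the order of all J genes TRAJ40 ranked 10 and TRAJ38 ranked 43 of the 44 with functional clonotypes. TRAJ40 and TRAJ34 could not be separated, since TRAJ40 was higher in 5 of 13 samples and their difference was 0.00554 ± 0.304 points (SD). The step from TRAJ34 to TRAJ26 was 0.120 ± 0.250 points, that from TRAJ32 to TRAJ39 0.0510 ± 0.321 points and that from TRAJ28 to TRAJ38 0.0445 ± 0.117 points, each smaller than its SD. The same held from TRAJ26 to TRAJ30, at 0.223 ± 0.262 points, and from TRAJ35 to TRAJ24, at 0.198 ± 0.460 points. These SDs describe the spread over samples, and the steps were not tested. TRAJ26 exceeded TRAJ30, and TRAJ28 exceeded TRAJ38, in 10 of 13 samples. TRAJ35 exceeded TRAJ24 in 9 samples, and TRAJ34 exceeded TRAJ26, and TRAJ32 exceeded TRAJ39, in 8. By contrast TRAJ33 exceeded TRAJ35, and TRAJ24 exceeded TRAJ28, in 13 of 13 samples. The correlation of position in the cluster with use was r = -0.162 across 11 J genes, a description over genes that share libraries.

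**Figure D2:**
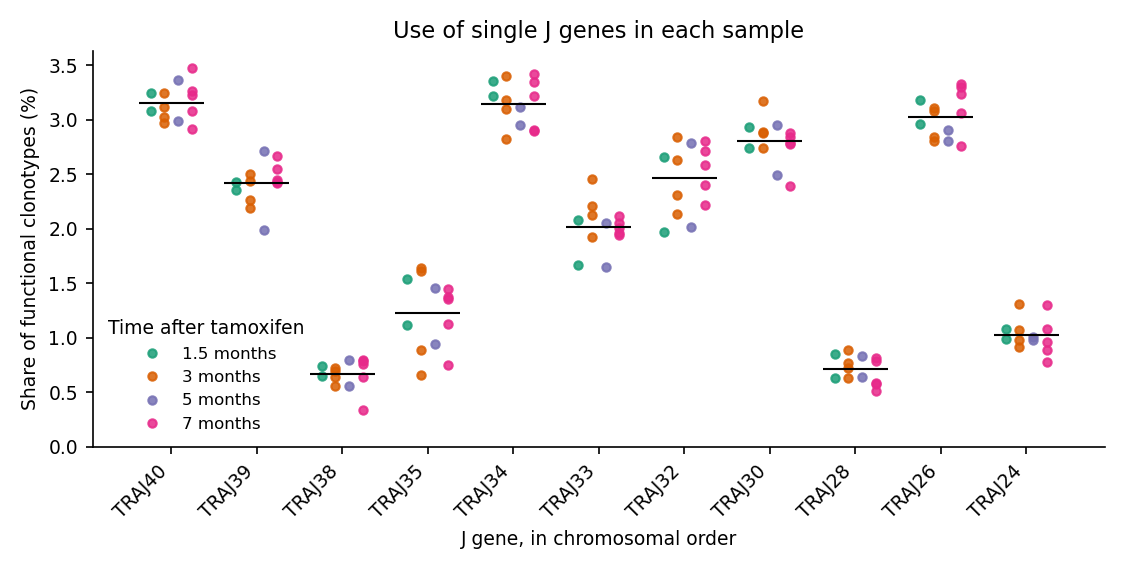
Share of functional clonotypes (%) of each middle J gene with functional clonotypes, in chromosomal order from TRAJ40 to TRAJ24. Points are samples coloured by months after 4-hydroxytamoxifen and lines are means over 13 samples; TRAJ40, TRAJ34, TRAJ26 and TRAJ30 lie near 3% at every time point, and TRAJ35 varies most for its level.

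The remaining 3 J genes were absent from functional rows. TRAJ25 appeared in 4 out-of-frame clonotypes, and TRAJ29 and TRAJ36 in no row. A count of 0 among 78433 functional clonotypes allows a share of up to 0.00382%. GENCODE gives TRAJ25 and TRAJ29 as J genes like the others, and neither segment had an in-frame stop row, of which the other middle J genes had 127.

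No middle J gene passed the test for a change in use between time points. In edgeR's quasi-likelihood test on clonotype numbers over all 13 samples, with Benjamini-Hochberg adjustment over 43 J genes, 0 of the 11 middle J genes tested were called in 3, 5 or 7 against 1.5 months or in 7 against 3 months. The background was the same, with 0% of all J genes called in each of the 4 comparisons. At an unadjusted p under 0.05, 0 middle J genes passed in any of these comparisons and 2 of 43 J genes passed in 7 against 3 months, and DESeq2 also called 0 in each. The smallest p of a middle J gene at 3 against 1.5 months was that of TRAJ33, with a log2 fold change of 0.22 ± 0.12 (SE, adjusted p = 0.957). For 5 against 1.5 months it was that of TRAJ34 at -0.11 ± 0.11 (adjusted p = 0.928) and for 7 against 1.5 months that of TRAJ32 at 0.14 ± 0.11 (adjusted p = 0.978). TRAJ30 came first in 7 against 3 months with -0.11 ± 0.08 (adjusted p = 0.801). Over these comparisons the fitted changes of the 11 genes lay between -0.20 and 0.22 on the log2 scale. Leaving out 1 sample moved these 4 values to between 0.090 and 0.40 for TRAJ33, -0.16 and -0.050 for TRAJ34, -0.042 and 0.37 for TRAJ32, and -0.15 and -0.056 for TRAJ30, with no call in any run. For TRAJ33 and TRAJ32 both extremes came from leaving out a sample at 1.5 months.

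In TRAJ32 and TRAJ35 many rows were near-copies of a larger row of the same sample. They differed from it only by a G in place of a T of the J segment, at a pair of positions in each gene. Capitals mark these positions in the segments below, counted from 1 at the 5′ end of the J segment, and the substitutions are T17G and T28G in TRAJ32 and T12G and T24G in TRAJ35.
TRAJ32 (chr14:54186101-54186166): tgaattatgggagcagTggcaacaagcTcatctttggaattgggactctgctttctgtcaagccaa
TRAJ35 (chr14:54183774-54183838): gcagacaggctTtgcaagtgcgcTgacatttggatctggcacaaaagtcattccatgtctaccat
Among functional TRAJ35 clonotypes that reach these positions, 50.4% carried T12G and 32.7% carried T24G. In TRAJ32, T17G was found in 12% of functional and 41.6% of out-of-frame clonotypes, and T28G in 11.1% and 39.5%. By counts the forms were smaller, with 1.54% of functional and 14.5% of out-of-frame TRAJ32 counts for T17G. In TRAJ35, T12G held 24.2% of functional and 23.0% of out-of-frame counts.

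The largest out-of-frame TRAJ32 clonotype, with TRAV12-2 in replicate 2 at 1.5 months, shows the pattern. Its CDR3 is given below with its 3 forms, in which capitals mark the changed base.
747 counts: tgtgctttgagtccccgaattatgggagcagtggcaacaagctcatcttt
T17G, 129 counts: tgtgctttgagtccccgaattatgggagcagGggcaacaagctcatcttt
T28G, 100 counts: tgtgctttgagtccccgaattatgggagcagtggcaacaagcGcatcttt
T17G and T28G, 52 counts: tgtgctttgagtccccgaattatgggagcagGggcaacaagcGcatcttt
The largest functional TRAJ35 clonotype, with TRAV15D-2-DV6D-2 in replicate 2 at 3 months, had the same kind of company.
674 counts: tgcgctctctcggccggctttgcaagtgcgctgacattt
T12G, 197 counts: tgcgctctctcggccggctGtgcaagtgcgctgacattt
T24G, 45 counts: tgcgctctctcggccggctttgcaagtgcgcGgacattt
T12G and T24G, 32 counts: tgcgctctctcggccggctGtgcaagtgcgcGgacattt
Over all such rows with a larger partner, the median size was 11.8% of the partner's count for functional TRAJ32, 14.5% for out-of-frame TRAJ32 and 13% for functional TRAJ35.

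When such rows were merged into the larger row, a step chosen after seeing the data, TRAJ35 fell from 952 to 401 functional clonotypes, a loss of 57.9%, and TRAJ32 from 1941 to 1628, a loss of 16.1%. Such rows were not particular to these genes, since TRAJ13 lost 43.3%, TRAJ15 35.6% and TRAJ21 35.6%, so merging also removed rows of the other J genes in every merged comparison. The median loss over 43 J genes was 1.57%, and among the remaining middle J genes TRAJ40 lost most, at 3.97%. The use of TRAJ35 was then 0.561% ± 0.133 (SD, n = 13), with samples from 0.369% to 0.705%, where the deposited rows gave 0.662% to 1.64%. Its rank among J genes went from 32 to 43, and that of TRAJ32 from 16 to 22. TRAJ35 clonotypes were also small as deposited, with a median of 11.5 ± 4.6 counts (SD, n = 13), while the medians of the other 10 genes lay between 41.2 for TRAJ32 and 69.6 for TRAJ39. Before merging, no TRAJ35 clonotype exceeded 0.1% of its sample's functional counts, and TRAJ30 had 51 that did. Sizes of single genes' clonotypes after merging are not given here, so the small TRAJ35 sizes hold for the deposited rows only.

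Out-of-frame rows cannot encode a receptor, and their J use was compared with that of functional rows of the same sample. The middle J genes took 34.1% ± 2.57 of out-of-frame clonotypes (SD, n = 13), with a lowest value of 28.8%, a median of 33.9% and a highest of 39.0%. Their functional share was lower in 13 of 13 samples, with a difference of -11.4 ± 2.43 points (SD; exact sign-flip permutation p = 2.44e-04, two-sided, the smallest it can give). After merging T-to-G forms the functional share differed by -4.69 points (exact sign-flip p = 2.44e-04).

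TRAJ32 stood apart from the other members in out-of-frame rows. It made up 16.6% ± 2.47 of out-of-frame clonotypes (SD, n = 13), from 12.4% to 20.1% over samples with a median of 16.6%, against 2.47% of functional ones, and the ranges did not overlap. Its out-of-frame share was 8.64% ± 1.2 with T-to-G forms merged and 9.05% ± 2.05 by counts. The difference between functional and out-of-frame rows was -14.1 points as deposited and -6.38 points merged. For every 100 functional TRAJ32 clonotypes there were 98.7 out-of-frame ones, where the median J gene had 12.3 and the other middle J genes had 8.03 to 24.6. Merging T-to-G forms brought TRAJ32 to 51.3, which was still the highest of 43 J genes, the next being 30.0. Without TRAJ32 the middle J genes differed by -0.276 ± 1.72 points between functional and out-of-frame rows (SD; exact sign-flip p = 0.576), and by 0.355 ± 1.98 points when forms were also merged (p = 0.521 in the same exact test). Of the merged out-of-frame TRAJ32 rows, 638 or 76.4% had 2 bases beyond a multiple of 3, while the share in the other middle J genes was 41.8%.

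Of the 11 middle J genes tested singly, 4 were higher in functional rows, where 46.5% of all 43 J genes were, and 4 were lower, where 16.3% were (adjusted sign-flip p under 0.05). TRAJ40 was higher by 1.25 ± 0.617 points (SD), TRAJ39 by 1.08 ± 0.284 points and TRAJ30 by 0.860 ± 0.499 points, each in 13 of 13 samples (exact sign-flip test, adjusted p = 9.54e-04). TRAJ26 was higher by 0.571 ± 0.824 points in 11 of 13 samples, but its adjusted p of 0.0482 in this exact test became 0.218 with forms merged, where 32.6% of J genes were higher and 16.3% lower. Besides TRAJ32, TRAJ35 was lower by -0.840 ± 0.616 points, TRAJ38 by -0.280 ± 0.322 points and TRAJ28 by -0.265 ± 0.376 points (adjusted exact p = 0.00221, 0.0176 and 0.0482). The TRAJ35 difference was -0.540 points with forms merged and -1.23 points without TRAJ32, and passed in both. TRAJ28 lost its call when single-count rows were dropped (adjusted exact p = 0.0908), and both TRAJ26 and TRAJ28 lost theirs with at least 10 counts (0.126 and 0.0520) and after removal of clonotypes whose abundance in another library was 100 times or more (0.0525 for each). In edgeR with the sample as a block, TRAJ26 did not pass either (log2 difference 0.14, adjusted p = 0.262). With in-frame stop rows in place of out-of-frame rows, which are few, TRAJ40, TRAJ30, TRAJ35, TRAJ38, TRAJ28 and TRAJ32 no longer passed, and TRAJ26 passed as lower (-4.98 points, adjusted exact p = 0.00467). TRAJ24, TRAJ33 and TRAJ34 did not pass, with differences of -0.0394, 0.247 and 0.164 points. TRAJ33 passed as higher without replicate 1 at 5 months (0.357 points, adjusted exact p = 0.0367) and as lower with in-frame stop rows (-4.59 points, 0.00525). Shares of 1 sample add up to a fixed total, so the large TRAJ32 share by itself lowers the out-of-frame share of every other gene: without TRAJ32 the difference was 0.171 points for TRAJ26 (adjusted exact p = 0.627) and TRAJ24 passed as lower, with -0.227 points (0.0429). TRAJ30 (0.539 points), TRAJ28 (-0.442 points) and TRAJ38 (-0.457 points) kept their calls without TRAJ32, and TRAJ33 and TRAJ34 turned to -0.0497 and -0.349 points.

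**Figure D3:**
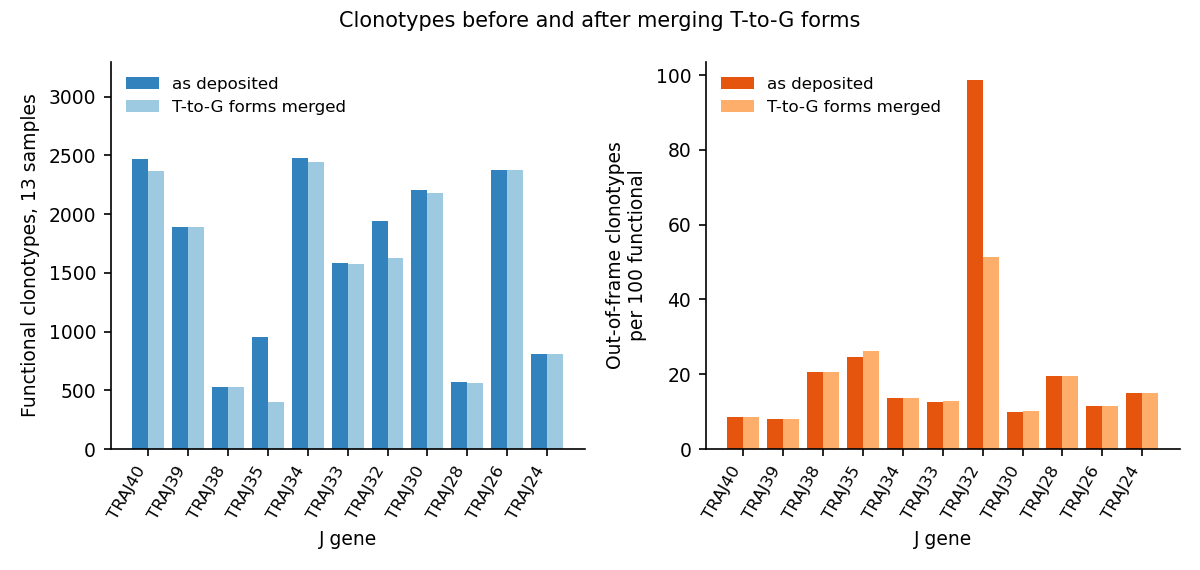
Functional clonotypes summed over 13 samples (left) and out-of-frame clonotypes per 100 functional ones (right) for each middle J gene, as deposited and with T-to-G forms merged. Merging takes TRAJ35 from 952 to 401 functional clonotypes and TRAJ32 from 98.7 to 51.3 out-of-frame clonotypes per 100 functional. TRAJ32 also falls from 1941 to 1628 functional clonotypes, and each of the other genes loses at most 3.97%.

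The V partners of the middle J genes lay between those of the J genes on either side for several families. V genes were summed by family, since the mouse V cluster holds near-identical copies. Families TRAV17, TRAV19 and TRAV21 each have 1 gene, at positions 122, 124 and 126 of 128 V genes in GENCODE's order, close to the J cluster. TRAV1 is the first V gene, 1749 kb upstream of TRAJ40. TRAV21 took 5.01% ± 0.624 of clonotypes with TRAJ41 and higher, 0.461% ± 0.179 with the middle J genes and 0.0343% ± 0.0487 with TRAJ2 to TRAJ20 (SD, n = 13). TRAV19 took 3.78% ± 0.531, 0.359% ± 0.234 and 0.0551% ± 0.0640 in the same order, and TRAV17 3.65% ± 0.521, 0.666% ± 0.201 and 0.165% ± 0.114. TRAV7, whose 13 genes are spread over the V cluster, ran the other way, with 11.8% ± 0.664, 19.2% ± 1.38 and 21.7% ± 1.1. TRAV12 likewise rose from 8.79% ± 0.697 through 11.6% ± 0.919 to 13.4% ± 0.974. TRAV5 declined from 5.82% ± 0.925 through 4.18% ± 0.629 to 2.91% ± 0.481.

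Against TRAJ41 and higher, 14 of 18 families tested passed (77.8%), of which 8 were higher with the middle J genes (44.4%) and 6 were lower (33.3%). Among those named by rule, TRAV7 was higher by 7.35 points, TRAV12 by 2.81, TRAV10 by 1.00 and TRAV1 by 0.937 points, each in 13 of 13 samples. TRAV1 had 0.966% ± 0.461 with the middle J genes and 0.0298% ± 0.0483 with TRAJ41 and higher. TRAV21 was lower by -4.55, TRAV19 by -3.42, TRAV17 by -2.99 and TRAV14 by -2.69 points in 13 of 13 samples (adjusted exact sign-flip p = 4.00e-04 for these 8 families). Against TRAJ2 to TRAJ20, 14 of 18 families passed (77.8%), with 9 higher (50.0%) and 5 lower (27.8%). TRAV5 was higher by 1.27, TRAV17 by 0.501 and TRAV21 by 0.427 points (adjusted exact p = 8.79e-04), and TRAV11 by 0.747 points (0.00188). TRAV7 was lower by -2.50, TRAV12 by -1.78, TRAV14 by -0.974 and TRAV8 by -0.834 points (adjusted exact p = 0.00146, 8.79e-04, 8.79e-04 and 0.00391).

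**Figure D4:**
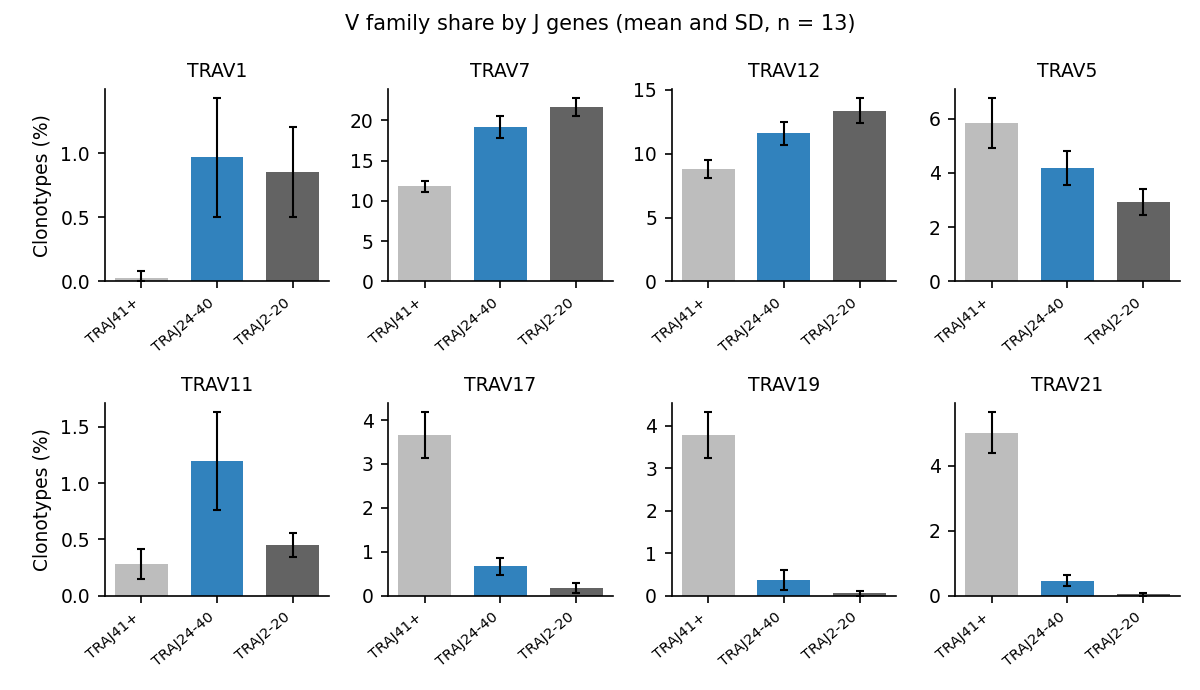
Share (%) of functional clonotypes that use each of 8 V families, among clonotypes with TRAJ41 and higher, TRAJ24 to TRAJ40, and TRAJ2 to TRAJ20. Bars are means and error bars SD over 13 samples; TRAV17, TRAV19 and TRAV21 fall and TRAV7 and TRAV12 rise along the J cluster, while TRAV11 is highest with the middle J genes.

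The V partners also varied within the middle stretch, described here for a split chosen after its values were seen. In the 6 used genes TRAJ33 to TRAJ40, TRAV17 had 1.01% ± 0.24, TRAV19 0.611% ± 0.411 and TRAV21 0.673% ± 0.224 (SD, n = 13). In the 5 used genes TRAJ24 to TRAJ32 the values were 0.236% ± 0.264, 0.0390% ± 0.0743 and 0.192% ± 0.214, with 3 clonotypes in all for TRAV19. TRAV7 had 17.5% ± 1.50 in the first group and 21.3% ± 2.19 in the second. TRAV1 had 0.738% ± 0.452 and 1.26% ± 0.609, and TRAV11 had 1.04% ± 0.355 and 1.40% ± 0.725. The shifts of TRAV1 and TRAV11 were each smaller than their SD in TRAJ24 to TRAJ32. TRAV12, with 11.2% ± 1.24 and 12.1% ± 1.12, and TRAV5, with 4.43% ± 0.828 and 3.88% ± 0.582, shifted by less than their SD. Single genes departed from the order, with TRAV7 at 15.6% of TRAJ32 and 20.8% of TRAJ38 clonotypes.

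Against all other J genes together, 11 of 18 families passed (61.1%), with 5 higher (27.8%) and 6 lower (33.3%). The count was 4 with shares of counts, 9 with T-to-G forms merged, and 7 without replicate 1 or without replicate 4 at 7 months. TRAV11, the family that semi-invariant natural killer T cells join to TRAJ18, had 1.2% ± 0.433 with the middle J genes and 0.384% ± 0.0724 with the others, and was higher in 13 of 13 samples by 0.814 ± 0.422 points (SD; adjusted exact sign-flip p = 0.00110). Over samples it ran from 0.375% to 1.84% with a median of 1.28% with the middle J genes, and from 0.229% to 0.50% with the others. TRAV11 was unevenly spread over the middle J genes, with 3.59% ± 2.13 of TRAJ32 clonotypes (70 clonotypes), 1.46% ± 1.09 of TRAJ26, 1.46% ± 2.31 of TRAJ35, 1.45% ± 0.886 of TRAJ33, 1.42% ± 0.804 of TRAJ34 and 1.2% ± 0.718 of TRAJ39. TRAJ30 and TRAJ24 had 1 TRAV11 clonotype each and TRAJ40 had 3. TRAV15 was higher by 0.395 points in 12 of 13 samples (adjusted exact p = 0.00659), with its highest shares in TRAJ35 (4.41% ± 4.41) and TRAJ32 (2.63% ± 2.17). The TRAV11 and TRAV15 shares by J gene are of deposited rows, which include the T-to-G forms of TRAJ32 and TRAJ35. Merged shares by J gene are not given here. TRAV10 was higher by 0.427 and TRAV6 by 0.836 points (adjusted exact p = 0.0269 and 0.0303). TRAV21 was lower by -0.844, TRAV19 by -0.653 and TRAV17 by -0.445 points in 13 of 13 samples, and TRAV14 by -1.42 points in 12 of 13 (adjusted exact p = 0.00110 for the first 3 and 0.00176). With shares of counts in place of clonotypes, TRAV10, TRAV15, TRAV6 and TRAV14 no longer passed, and TRAV6 also lost its call without single-count rows (0.832 points, adjusted exact p = 0.0580).

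CDR3 length among the middle J genes followed the length of the segment. TRAJ33, with 26 bases up to the end of the CDR3, had a mean of 12.4 ± 0.137 amino acids (SD, n = 13), and TRAJ34, with 27 bases, 12.9 ± 0.114. TRAJ28, with 34 bases, had 15.0 ± 0.187 and TRAJ32, with 35 bases, 14.9 ± 0.119. Across the 11 J genes the correlation of segment bases with mean CDR3 length was r = 0.948, given as a description over genes that share libraries. As a group the middle J genes had 13.52 ± 0.0390 amino acids, against 13.82 ± 0.0565 for TRAJ41 and higher (0 of 13 samples higher, adjusted exact sign-flip p = 4.88e-04) and 13.53 ± 0.0280 for TRAJ2 to TRAJ20. The difference of 0.0325 ± 0.0399 amino acids from all other J genes (adjusted exact p = 0.0246) turned to -0.0361 when T-to-G forms were merged, which passed in the opposite direction (adjusted exact p = 0.00586), and to -0.00168 with at least 10 counts per clonotype (0.898).

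The number of inserted bases, read from the deposited V end and J start of each row, was higher with the middle J genes. It was 2.36 ± 0.105 bases against 2.09 ± 0.0511 with all other J genes (SD, n = 13), higher in 13 of 13 samples by 0.267 ± 0.109 bases (adjusted exact sign-flip p = 4.88e-04). Clonotypes without inserted bases made up 28.3% ± 2.01 against 31.7% ± 0.889, lower in 13 of 13 samples. The J end had lost 3.54 ± 0.0933 bases against 2.65 ± 0.0541, more in 13 of 13 samples, and both had the same adjusted exact p of 4.88e-04. Among the members the bases removed ranged from 1.78 in TRAJ38 and 2.10 in TRAJ30 to 4.96 in TRAJ39 and 6.77 in TRAJ24.

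TRAJ24 stood apart in inserted bases with 5.91 ± 0.441, where the other 10 genes had 1.52 (TRAJ35) to 2.31 (TRAJ40). Its deposited J start lay within the germline segment. For 64.4% of the 808 functional TRAJ24 clonotypes the GENCODE segment matched at least 4 bases further 5′ than the deposited start, and the highest such share of any other J gene was 0.569%. The largest TRAJ24 clonotype of this kind, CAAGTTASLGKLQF with TRAV10 in replicate 5 at 7 months (3817 counts), is shown with its inserted bases in capitals.
Deposited J start: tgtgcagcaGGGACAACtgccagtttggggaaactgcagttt
J start from the GENCODE segment: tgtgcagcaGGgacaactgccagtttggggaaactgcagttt
TRAJ24 (chr14:54195638-54195700): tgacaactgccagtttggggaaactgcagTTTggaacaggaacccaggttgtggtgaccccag
With the J start taken from the GENCODE segment in every row, chosen after seeing the data, TRAJ24 had 2.29 ± 0.358 inserted bases and 2.75 removed. The middle J genes then had 2.17 ± 0.103 inserted bases against 2.07 ± 0.0491, a difference of 0.103 ± 0.107 bases in 11 of 13 samples (adjusted exact p = 0.00488). The difference in bases removed was 0.697 ± 0.0900, in 13 of 13 samples (adjusted exact p = 9.77e-04), and that in clonotypes without inserted bases -2.31 ± 1.98 points (0.00391).

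**Figure D5:**
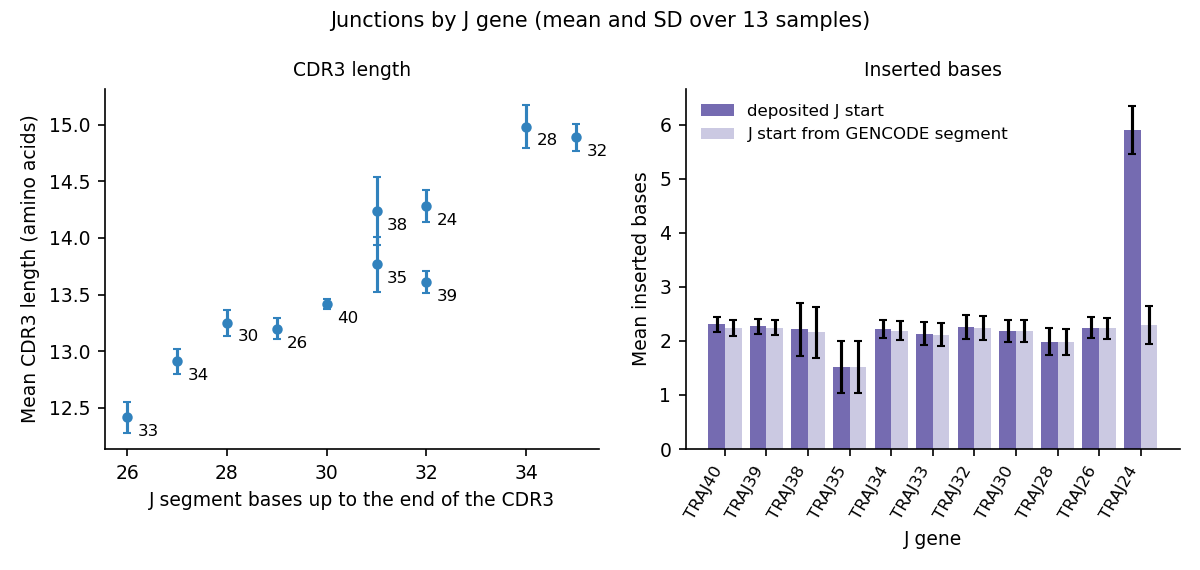
Left, mean CDR3 length (amino acids) of each middle J gene, labelled by number, against the bases of its segment up to the end of the CDR3. Right, mean inserted bases with the deposited J start and with the J start from the GENCODE segment; bars and points are means and error bars SD over 13 samples, and only TRAJ24 moves by more than its SD, from 5.91 to 2.29.

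Differences in clone size from all other J genes together did not pass the test on the deposited rows, but the median size passed against the J genes on either side, in opposite directions. Median counts per clonotype were 57.7 ± 17.3 against 56.6 ± 16.8 with all other J genes (SD, n = 13), a difference of 1.08 ± 2.68 counts (adjusted exact sign-flip p = 0.257). The difference was 5.96 ± 4.43 counts from TRAJ2 to TRAJ20 (higher in 12 of 13 samples, adjusted exact p = 7.81e-04) and -4.38 ± 4.34 counts from TRAJ41 and higher (higher in 1 of 13 samples, adjusted exact p = 0.00313). The share of clonotypes above 0.1% of functional counts was 1.68% ± 0.673 against 1.61% ± 0.483 (adjusted exact p = 0.619). These numbered 12 to 37 per sample and took 1.84% to 9.79% of functional counts. With T-to-G forms merged the difference from all other J genes was -2.54 counts (adjusted exact p = 0.0104). Merging removed up to 57.9% of a gene's functional clonotypes among the middle J genes (TRAJ35). The highest loss was 43.3% in TRAJ2 to TRAJ20 (TRAJ13) and 3.19% in TRAJ41 and higher (TRAJ58). Merged differences in median size from the J genes on either side are not given here, so those differences hold for the deposited rows only.

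The 20 largest middle J clonotypes took 15.3% and 12.7% of middle J counts at 1.5 months, and 23.6%, 16.4%, 20.9% and 15.1% at 3 months. They took 33.1% and 20.4% at 5 months and 13.7%, 18%, 19.3%, 26.0% and 31.2% at 7 months. The groups overlapped widely at the later time points, where single samples held the highest values. The trend with months was r = 0.401 (permutation p = 0.177, rho = 0.388, p = 0.189, n = 13), with an adjusted p of 0.471 over 8 measures, and without the 2 samples at 1.5 months r was 0.178. The inverse Simpson index, which is lower when a few clonotypes hold most counts, was 298 and 481 at 1.5 months, 193, 308, 244 and 375 at 3 months, 54.1 and 204 at 5 months and 411, 299, 270, 70.5 and 111 at 7 months. The samples at 7 months thus spanned from below those at 3 months to within the range at 1.5 months (r = -0.401, permutation p = 0.172, rho = -0.334, p = 0.263, adjusted p = 0.471; r = -0.171 without the samples at 1.5 months). The middle J share of out-of-frame clonotypes had the strongest relation with months, with 36.2% ± 1.32 at 1.5 months (n = 2), 35.5% ± 2.43 at 3 months (n = 4), 32.2% ± 1.07 at 5 months (n = 2) and 32.9% ± 2.68 at 7 months (n = 5). Over the 13 samples r was -0.543 (permutation p = 0.0546) and rho was -0.613 (p = 0.0295), neither of which passed after adjustment (0.437 and 0.236), and r was -0.443 without the samples at 1.5 months. None of the 8 trends passed.

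The single largest middle J clonotype of each time point used TRAJ40 or TRAJ39. Over all samples, clonotypes above 0.1% of functional counts numbered 36 in TRAJ40 and 34 in TRAJ39. TRAJ30 (51), TRAJ26 (45), TRAJ33 (40) and TRAJ34 (38) had more, and the remaining middle J genes had fewer. Capitals mark inserted bases, of which the first clonotype has none.
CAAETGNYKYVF (TRAV4-4-DV10, TRAJ40): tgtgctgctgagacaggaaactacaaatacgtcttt
TRAV3-3 with TRAJ40: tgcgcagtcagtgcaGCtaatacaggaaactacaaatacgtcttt
TRAV14N-3 with TRAJ39: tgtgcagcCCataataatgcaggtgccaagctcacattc
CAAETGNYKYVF led at 1.5 months with 1.01% of functional counts in replicate 1 (95% Wilson interval 0.982% to 1.03%) and at 7 months with 2.33% in replicate 4 (2.29% to 2.38%). The same nucleotide sequence was found in 8 samples, at 0.0893% in replicate 2 at 7 months and less in the other 5. The TRAV3-3 clonotype led at 3 months with 0.828% in replicate 1 (0.807% to 0.849%) and had 2 counts in 1 other sample. The TRAV14N-3 clonotype led at 5 months with 2.67% in replicate 1 (2.62% to 2.71%) and had at most 2 counts in 3 other samples, while its amino-acid sequence occurred in 8 samples through 4 nucleotide sequences. As nucleotide sequences, the TRAV3-3 and TRAV14N-3 clonotypes were thus abundant in 1 sample each, and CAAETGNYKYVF was the leading middle J clonotype of its time point at both 1.5 and 7 months.

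Sharing between samples was less frequent than with other J genes. Clonotypes whose CDR3 amino-acid sequence occurred in another sample made up 57.3% ± 3.08 against 62.2% ± 2.56 with all other J genes (SD, n = 13), lower in 13 of 13 samples with a difference of -4.90 ± 1.31 points (adjusted exact sign-flip p = 4.88e-04). The difference from TRAJ41 and higher was -0.153 ± 1.84 points (adjusted exact p = 0.766), and that from TRAJ2 to TRAJ20 -4.44 ± 1.23 points (4.88e-04). By J gene the shared percentage of deposited rows, pooled over samples, ran from 31.7% in TRAJ35 and 47.1% in TRAJ38 to 63.4% in TRAJ30 and 64.6% in TRAJ34. The TRAJ35 value includes its many T-to-G forms, and merged values by gene are not given here. With T-to-G forms merged, the middle J genes were still lower than all other J genes (-3.46 points).

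Of 10261 distinct middle J CDR3 amino-acid sequences, 7462 or 72.7% were found in 1 sample, against 70.6% with all other J genes. Of the middle J sequences, 9 were found in all 13 samples. Those 9 used TRAJ30 (4), TRAJ34 (3), TRAJ33 (1) and TRAJ40 (1), and took 2.46% ± 0.796 of middle J functional counts. The share in all 13 samples was 0.0877%, and for all other J genes it was 0.180% (56 of 31172). The 3 with the highest mean share are shown by their most abundant nucleotide sequence.
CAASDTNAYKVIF (TRAJ30): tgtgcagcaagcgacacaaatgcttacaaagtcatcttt
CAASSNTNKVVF (TRAJ34): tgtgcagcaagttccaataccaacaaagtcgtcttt
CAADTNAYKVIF (TRAJ30): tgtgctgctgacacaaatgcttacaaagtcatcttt
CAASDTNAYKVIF had 0.191% ± 0.129 of functional counts, with a lowest value of 0.00985%, a median of 0.138% and a highest of 0.410% in replicate 2 at 5 months. It was encoded by 10 nucleotide sequences, and TRAV7 supplied 82.8% of its counts. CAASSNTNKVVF had 0.0740% ± 0.0411, from 0.0129% to 0.163%, in 13 nucleotide sequences. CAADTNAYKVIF had 0.0555% ± 0.0590, from 0.00512% to 0.212%, in 9 nucleotide sequences.

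TRAJ33 is also the J gene of mucosal-associated invariant T (MAIT) cells, which join it to TRAV1 with a CDR3 of 12 amino acids. TRAV1 with TRAJ33 occurred in 7 functional clonotypes of 5 samples, and 1 of them, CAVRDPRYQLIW with 106 counts in replicate 1 at 3 months, had that length. Markers of the receptor of natural killer T cells, TRAV11 with TRAJ18, lie outside the middle J genes. This pair was found in 29 of 1740 functional TRAJ18 clonotypes, with 2931 counts. No CDR3 length or sequence was required, so these clonotypes need not come from natural killer T cells.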

How the data were processed

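The authors sorted TCRβ+CD4+GFP+Thy1.1- cells, amplified Trac transcripts by 5′ RACE, sequenced on a MiSeq, assembled clonotypes with MiXCR and corrected them by frequency with VDJtools. The paper also describes removing clonotypes with a frameshift or stop codon, but the deposited rows still hold such clonotypes. The deposited tables give a raw count per clonotype and its fraction of the sample, which was not used. GRCm38 is the build in the submitters' processing notes. Each table holds 1 sample, and rows without a TRAJ gene (109) were left out. V end and J start positions were used as deposited.

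The members and lists were chosen with earlier results of these data known. Python 3.11.15 (numpy 2.4.6, pandas 2.3.3) computed shares, exact permutation tests over samples, sign-flip tests over all 8192 patterns of 13 paired differences and trends with 100000 permutations, all two-sided. V families with a mean of at least 20 clonotypes and J genes with a mean of at least 5 were tested. J use over time was tested with edgeR 4.0.16 in R 4.3.3 (TMM, filterByExpr, quasi-likelihood), with DESeq2 1.42.0 as an alternative, and Benjamini-Hochberg adjustment throughout. Clonotypes were named when largest at a time point, or among the 3 leading by mean share of the CDR3s present in all samples, and V families were named up to 4 in each direction by adjusted p, ties by size. T-to-G forms were merged with a larger row of the same sample and J gene that differed only by T read as G in the J part. The scripts were tested on simulated data. Figures used matplotlib 3.10.9.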

Additional observations from a re-analysis of the deposited data

Results flagged for a closer look

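In replicate 2 at 7 months TRAJ30 took 2.40% of functional clonotypes, below the other 4 samples of that group, the nearest of which had 2.78%. In replicate 1 at 7 months 58.3% of middle J clonotypes had a CDR3 found in another sample, above the other 4, the nearest of which had 55.0%. These 2 samples were far from the rest of their group among 48 groups of values searched, and chance alone gives about 1 such value in 20 groups. Rows with an in-frame stop codon, which are neither functional nor out-of-frame and served only in an alternative comparison, held 1336 counts in 127 rows of the middle J genes over the 13 samples, from 5 counts in replicate 2 at 3 months to 274 in replicate 3 at 7 months, and TRAJ26 (37 rows) and TRAJ33 (30 rows) held the most. For the 8 CDR3 and clone measures, no test of whether the difference between middle and other J genes varied between time points passed, with a smallest adjusted permutation p of 0.945.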

How the results depend on the processing

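Replicate numbers gave no pairing, since the mean correlation of same-numbered deviations in J use was 0.0672 over 14 pairs. A replicate block called 0 J genes in every time comparison, and gave -0.0999 points for the functional share at 3 months, -0.282 points at 7 months, r = -0.0715 for the CDR3 length trend and r = -0.239 for the clonotype share trend. Merging T-to-G forms, leaving out TRAJ32 and taking the J start from GENCODE were chosen after seeing the data. Merging gave -0.0361 amino acids (adjusted exact p = 0.00586), -0.0333 for mean counts over the sample mean, -2.54 median counts, -0.140 points for TRAJ34, -3.45e-05 points for the share at 7 months and r = -0.0823 for its trend. Functional against out-of-frame, leaving out TRAJ32 gave -0.276 points for the group, -0.0497 for TRAJ33 and -0.349 for TRAJ34, and with merging 0.355, -0.0586 and -0.395. TRAJ24 then passed as lower in functional rows, with -0.227 points (adjusted exact p = 0.0429) and, with merging, -0.244 points (0.0426). At least 10 counts gave -0.00168 amino acids, -0.00333 for mean counts, -1.15 median counts, 0.0126 points for TRAJ24, -0.218 for TRAJ34, -0.521 and -0.181 points for the share at 3 and 7 months and r = -0.0521 for inserted bases. At least 2 counts gave -0.385 and -0.235 points at 3 and 7 months and r = -0.0152 and -0.0526 for the trends of length and share. Removing clonotypes 100 times more abundant in another library gave -0.177 points at 3 months. Against TRAJ2 to TRAJ20 the differences were -0.0661 points above 0.1%, -0.00685 amino acids and 5.96 median counts, and against TRAJ41 and higher -0.153 points shared, -0.299 amino acids and -4.38 median counts. Summed counts gave a log2 change of 0.22 for TRAJ34 at 5 months, and count shares called 4 V families. The log2 differences from edgeR were -0.0073 for TRAJ33 and -0.10 for TRAJ34. In place of out-of-frame rows, in-frame stop rows called 14 J genes and gave 0.628 points for TRAJ24, -4.98 for TRAJ26, 0.316 for TRAJ28, 0.0229 for TRAJ32 and -4.59 for TRAJ33. That setting ended the calls of TRAJ32 and TRAJ28, made TRAJ26 and TRAJ33 pass as lower (adjusted exact p = 0.00467 and 0.00525), and also ended the calls of TRAJ40 (0.217 points, adjusted exact p = 0.860), TRAJ30 (1.49, 0.0525), TRAJ35 (-0.677, 0.635) and TRAJ38 (-0.0170, 0.987). TRAV6 lost its call at 2 or more counts (0.832 points, adjusted exact p = 0.0580). The cause of these changes was not tested.

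Leaving out 1 sample gave 7 to 11 V families called, and lost the call of TRAJ26 in 11 and of TRAJ28 in 9 of 13 runs. Mean counts ran from -0.0104 to 0.0110, and TRAJ32 at 7 against 1.5 months from -0.042 to 0.37 (log2). The clonotype share differences ran from -0.785 to 0.874 points at 3 months, -1.56 to 0.0960 at 5 months and -0.743 to 0.917 at 7 months, with the extremes without a sample at 1.5 months, and those of the count share from -1.69 to 2.12, -0.637 to 3.18 and -1.48 to 2.33. Trends ran from r = -0.116 to 0.300 for length, -0.194 to 0.267 for inserted bases, -0.151 to 0.194 for clonotype share and -0.0935 to 0.262 for count share. With 2 samples at 1.5 and at 5 months, each such comparison rests on few samples.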
